A study of Arabidopsis thaliana with 18 samples.

Results

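Of 33602 gene models counted in Arabidopsis thaliana seedlings, 25 rose at least 4-fold when wild-type seedlings were starved of nitrogen and then stayed near the starved level after nitrate was given back. The genes were chosen on CPM, a gene's read count scaled so that every library has the same total, averaged over the 3 wild-type libraries of a condition. A member had a highest wild-type mean of at least 5 CPM, a starved over untreated ratio of at least 4, and a resupplied over starved ratio between 0.8 and the inverse of 0.8, with 0.5 CPM added to each mean before the ratios. In all, 118 genes of at least 5 CPM were raised 4-fold in wild type. The ratio after nitrate was below that range for 71 of them, above it for 22 and within it for the 25. In the wild-type values themselves, every starved library lay above every untreated one for the 25 (43.1% of the genes tested below), every resupplied library below every starved one for 6 (30.3%) and above for 1 (12.0%). These counts follow from the choice, and nothing is read from them. No library of the mutant was used in the choice, so the same response was tested in the mutant. The wild-type values are given as a description. That test is not fully separate from the choice. The members were chosen with earlier results of these data known, and same-numbered libraries of the genotypes correlated within a condition (0.273 to 0.664). All 25 passed the filter on low counts.

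The 6 groups of 3 libraries were nlp2-2 and wild type (Col-4), each untreated at 10 days, starved of nitrogen for 3 days (13 days old), and starved and then given 3 mM nitrate for a time labelled 30 (the labels state no unit). The mutant, called nlp2 here, is a single T-DNA insertion line in NLP2 (AT4G35270), which encodes a nitrate-responsive transcription factor of the NIN-like family. All seedlings grew in liquid medium at a constant labelled temperature and light. Age and starvation changed together, and no starved group was kept without nitrate for the time labelled 30, so starvation and age, or nitrate and elapsed time, cannot be told apart. Planting and harvest dates, where the labels give them, lie 12 days apart in untreated, starved and resupplied libraries alike, which does not match those ages.

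NLP2 itself averaged 6.87, 13.0 and 13.4 CPM in untreated, starved and resupplied nlp2, against 23.9, 63.9 and 45.2 CPM in wild type. Between 14684639 and 25545031 reads were counted per library. Replicate 1 of resupplied nlp2, of untreated nlp2 and of resupplied wild type each stood apart from the other replicates of its group, with a chi-square per degree of freedom of 29.7 to 61.6, against 6.55 to 17.0 for the other 12 pairs of libraries within a group. The counts of members called within nlp2, or between genotypes in a condition, are also given without these libraries. The series calls the replicates biological. In every nlp2 group and in untreated wild type, replicates 1, 2 and 3 carry planting months of February, October and November, so they came from separate plantings. Most other wild-type libraries carry no planting date. The tests measure the spread between these libraries, which may be partly technical.

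Plants short of nitrogen slow their growth, take apart proteins for their amino acids and store surplus carbon as starch, and their roots change the barriers that control what passes between soil and vein. Suberin, a polyester of fatty acids, fatty alcohols and aromatic acids, is laid down in the walls of the root endodermis as such a barrier. Its monomers are made by P450 hydroxylases, acyltransferases and reductases, and ABCG transporters are needed for a normal suberin layer. When nitrate returns, many transcripts respond fast, through NIN-like proteins among other factors.

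The 25 genes were grouped by hand from their annotation, after their values had been seen. The first set holds 8 genes of suberin, surface lipid and cell wall, the second 3 genes of triterpene and glucosinolate synthesis, the third 4 genes of starch, sugar phosphate, asparagine and membrane lipid, and the fourth 5 genes of detoxification and stress, a chaperone among them. The last 5 have other or unknown functions. The upstream sequences of some members are shown first.

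The promoters of 8 members are shown, read from RefSeq's TAIR10.1 assembly as 250 bases before and 50 bases after the annotated start, 5′ to 3′ on the gene's own strand. Capitals mark matches, on either strand, to 6 sets of letters: the G-box CACGTG, the abscisic acid element ACGTGGC (which can overlap a G-box), the W-box TTGACC or TTGACT, the drought element GCCGAC, the phosphate starvation element P1BS (GNATATNC), and the TGA core TGACG. The first 4 hold the most kinds of match among the 10 members with a gene symbol and the largest changes in starved nlp2, where ASPGB1 comes before others with 1 kind by the size of its change. AT1G14120, AT2G04070 and AT2G41730, which have no symbol and 2 kinds each, are not shown. The last 4 are the members on a list of suberin genes.
BIP3, chr1:2931801-2932100, reverse strand: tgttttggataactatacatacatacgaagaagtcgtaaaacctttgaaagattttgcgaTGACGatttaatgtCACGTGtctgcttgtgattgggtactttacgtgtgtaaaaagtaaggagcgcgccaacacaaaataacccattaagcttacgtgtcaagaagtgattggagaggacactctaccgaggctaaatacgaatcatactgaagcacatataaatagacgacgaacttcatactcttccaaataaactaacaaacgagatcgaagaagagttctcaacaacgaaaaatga
NPC4, chr3:845047-845346, reverse strand: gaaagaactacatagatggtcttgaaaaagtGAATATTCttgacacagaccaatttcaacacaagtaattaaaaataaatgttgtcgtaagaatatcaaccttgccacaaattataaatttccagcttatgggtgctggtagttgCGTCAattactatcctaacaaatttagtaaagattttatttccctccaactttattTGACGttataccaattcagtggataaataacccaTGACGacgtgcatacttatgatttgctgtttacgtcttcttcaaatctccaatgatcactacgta
GSTU24, chr1:5869293-5869592, forward strand: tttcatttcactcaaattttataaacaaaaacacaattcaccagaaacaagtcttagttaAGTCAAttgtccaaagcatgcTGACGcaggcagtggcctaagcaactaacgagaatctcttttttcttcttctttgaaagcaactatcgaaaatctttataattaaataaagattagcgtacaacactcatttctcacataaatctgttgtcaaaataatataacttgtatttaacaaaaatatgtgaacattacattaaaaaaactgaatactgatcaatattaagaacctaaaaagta
ASPGB1, chr3:5471485-5471784, forward strand: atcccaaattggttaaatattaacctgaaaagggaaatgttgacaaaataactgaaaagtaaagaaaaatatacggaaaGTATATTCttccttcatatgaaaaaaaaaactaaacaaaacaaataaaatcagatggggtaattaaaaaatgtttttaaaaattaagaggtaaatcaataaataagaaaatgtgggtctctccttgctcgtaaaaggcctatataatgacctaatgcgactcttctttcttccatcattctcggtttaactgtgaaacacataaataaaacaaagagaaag
CYP86B1, chr5:7805919-7806218, reverse strand: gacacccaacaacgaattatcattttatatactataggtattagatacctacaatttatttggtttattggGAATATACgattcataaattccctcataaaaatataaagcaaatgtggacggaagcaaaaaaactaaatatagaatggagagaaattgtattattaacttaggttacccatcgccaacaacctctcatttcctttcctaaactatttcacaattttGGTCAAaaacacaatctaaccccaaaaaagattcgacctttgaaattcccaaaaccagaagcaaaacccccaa
ABCG2, chr2:15675871-15676170, reverse strand: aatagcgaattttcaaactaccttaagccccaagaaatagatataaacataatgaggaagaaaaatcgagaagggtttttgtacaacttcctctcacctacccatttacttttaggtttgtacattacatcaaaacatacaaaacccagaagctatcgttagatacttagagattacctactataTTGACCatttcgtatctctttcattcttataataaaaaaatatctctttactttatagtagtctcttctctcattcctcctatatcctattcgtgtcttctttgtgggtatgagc
ABCG6, chr5:4370442-4370741, forward strand: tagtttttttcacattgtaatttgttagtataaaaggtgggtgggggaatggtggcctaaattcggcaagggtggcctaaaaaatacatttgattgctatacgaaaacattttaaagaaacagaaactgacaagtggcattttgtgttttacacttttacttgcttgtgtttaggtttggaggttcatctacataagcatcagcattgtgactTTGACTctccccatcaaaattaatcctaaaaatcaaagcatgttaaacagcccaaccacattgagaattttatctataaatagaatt
FACT, chr5:25449061-25449360, forward strand: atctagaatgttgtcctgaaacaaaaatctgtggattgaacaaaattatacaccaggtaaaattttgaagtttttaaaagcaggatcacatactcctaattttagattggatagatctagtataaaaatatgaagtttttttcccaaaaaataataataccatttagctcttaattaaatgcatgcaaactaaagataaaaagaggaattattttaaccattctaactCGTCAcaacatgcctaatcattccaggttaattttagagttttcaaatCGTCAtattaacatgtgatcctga

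The P1BS letters were in 5 of the 25 promoters (20%), those of ASPGB1, GPT2, CYP86B1, NPC4 and AT2G04070, against 6.09% of 32834 promoters of all gene models and 6.25% of those of the genes tested. NPC4 is a phospholipase C known from phosphate starvation, and its promoter above holds 1 such match and 3 TGA cores. The W-box letters were in 10 promoters (40.0%, against 31.9% of all), those of CYP86B1, ABCG2 and ABCG6 above and of AT3G50400, AT4G24140, AT2G35380 and AT5G09480 in the first set among them. The TGA core was in 8 (32.0%, against 22.8%), including those of FACT and BIP3. The G-box letters were in 2 (8.0%, against 6.9%), those of BIP3 and AT1G14120. The drought element was in 1, that of AT2G41730 (4.0%, against 3.4%), and the abscisic acid element in 0, against 3.65% of all promoters. Of the 71 raised genes below the range after nitrate, 9.86% had the P1BS letters and 31.0% the TGA core, the latter near the members' share. Their shares were 29.6% for the W-box, 11.3% for the G-box, 2.82% for the drought element and 8.45% for the abscisic acid element. These are matches of letters in a 300-base window, with no test, and they say nothing of binding. The members' gene models had a median of 2 exons, from 1 to 13, against 4 over the genes tested, and a median length of 1520 bases, against 1490.

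In nlp2, all 25 members were called higher in starved than in untreated seedlings, against 14.5% of the 21347 genes tested (edgeR quasi-likelihood test, adjusted p below 0.05 over all genes). Every starved nlp2 library lay above every untreated one for all 25, against 35.5% of genes tested. Their median log2 fold change was 1.65, from 1.07 for AT3G50400 to 5.15 for BIP3, against a median of 0.02 over all genes tested. The fold changes are on TMM-scaled counts, which lie 0.20 below those scaled by library size in this comparison, where the members' median is 1.84. All 25 were called with each of the 6 libraries of the comparison left out in turn, replicate 1 of untreated nlp2 included. Computed on nlp2 means exactly as in the rule, the starved over untreated ratio reached 4 for 10 of the 25, against 0.52% of the genes of at least 5 CPM in nlp2.

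After nitrate, 1 member was called lower in resupplied than in starved nlp2, against 9.23% of genes tested, and 0 were called higher, against 9.36%. At an unadjusted p below 0.05 the counts were 2 lower and 1 higher, against 15.4% and 14.1% of genes tested. DESeq2 called 1 lower and 0 higher, against 2102 and 2083 over all genes. The median log2 fold change was -0.15, from -0.59 for BIP3 to 0.37 for ASPGB1, against -0.01 over all genes tested. A missed call does not show that a level was unchanged, and the intervals were wide. The estimate lay between ratios of 0.8 and its inverse for 18 of the 25, against 69.1% of genes tested, a share near the background. The whole 95% interval did so for 2, AT3G26460 and ABCG2, against 18.6%. For 8 members every resupplied nlp2 library lay below every starved one (25.2% of genes tested), and for 0 members every one lay above (10.7%). Without replicate 1 of resupplied nlp2, which stood apart, 2 members were called lower, NPC4 and GBSS1.

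All 25 were called higher in resupplied than in untreated nlp2, with no overlap between the groups, against 19.6% of genes called and 28.9% without overlap. The median log2 fold change was 1.67. Without replicate 1 of untreated nlp2, which stood apart, 24 were called, and CYP705A5 was not; without replicate 1 of resupplied nlp2 all 25 were. This comparison shares its libraries with the other comparisons within nlp2. By the full rule applied to nlp2, 5 members met both ratios, against 0.124% of genes of at least 5 CPM in nlp2. That count moved with single libraries, to 2 without replicate 2 of resupplied nlp2.

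**Figure D1:**
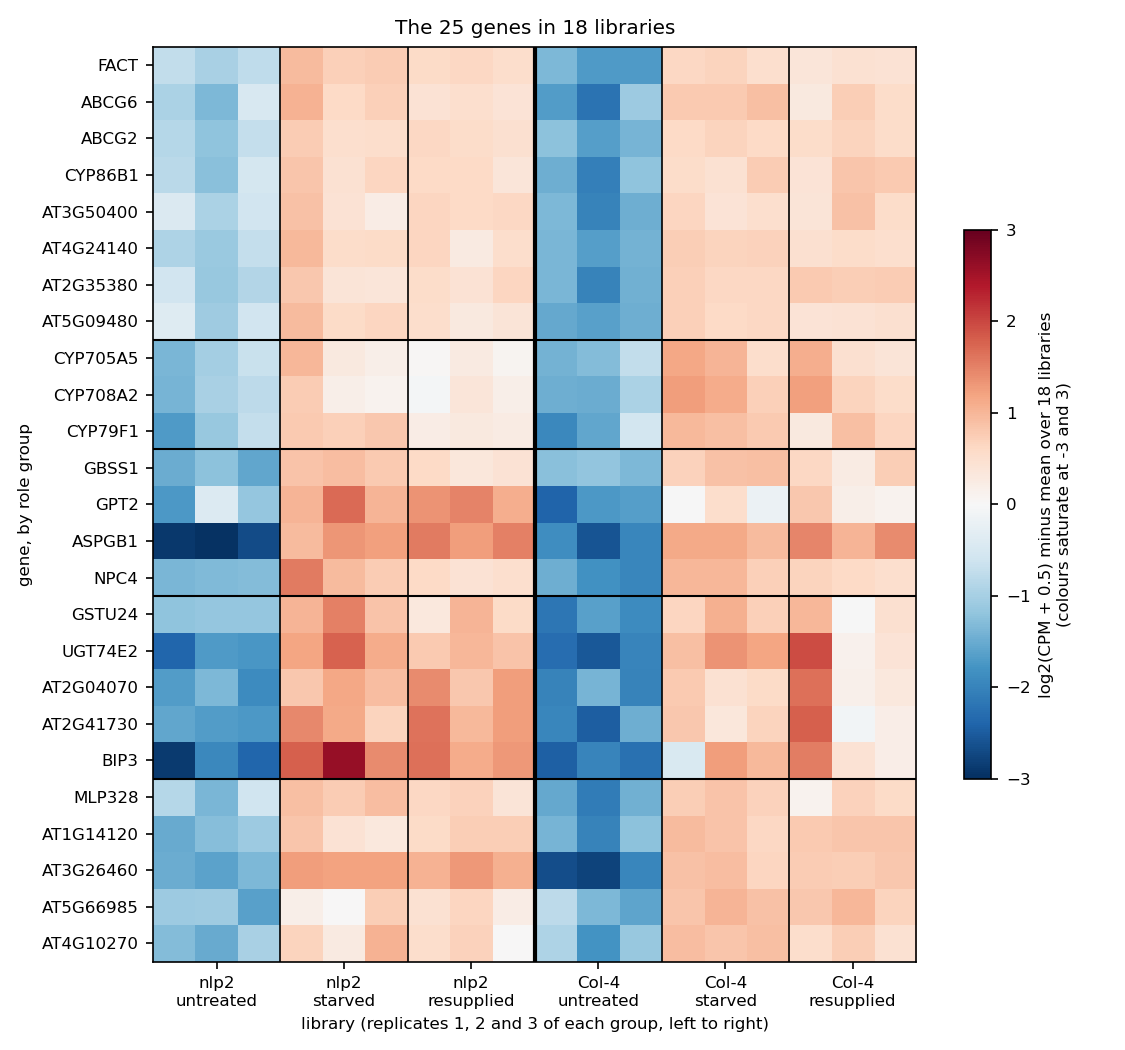
Level of each of the 25 genes in each of the 18 libraries, as log2(CPM + 0.5) minus the gene's mean over all libraries, with nlp2 on the left, wild type (Col-4) on the right and genes in rows by role group. The untreated libraries are low in every row of both genotypes, and replicate 1 of resupplied wild type is high in the rows of UGT74E2, AT2G04070, AT2G41730 and BIP3.

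The other genes raised at least 4-fold in wild type form 2 classes by their wild-type ratio after nitrate. The 71 genes with a wild-type ratio below 0.8 had a median log2 fold change of -0.81 between resupplied and starved nlp2, and 48 were called lower. The 22 genes with a wild-type ratio above the inverse of 0.8 had a median of 0.73, and 10 were called higher. The members' median of -0.15 lay between them. In starved against untreated nlp2 the 71 had a median of 2.32 with 70 called higher, and the 22 a median of 2.62 with 20 called higher, both above the members' 1.65. The classes were formed on wild-type values, and the differences between classes in nlp2 were not tested.

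**Figure D2:**
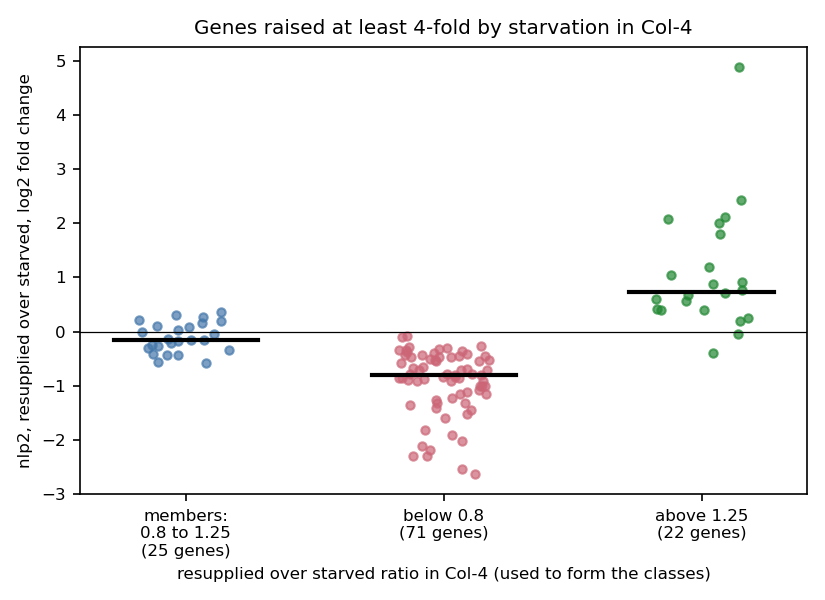
Log2 fold change between resupplied and starved nlp2 for the 118 genes raised at least 4-fold by starvation in wild type, in 3 classes formed on the wild-type ratio after nitrate; each point is a gene and each bar a median. The 25 members spread around a median of -0.15, the 71 genes of the class below 0.8 around -0.81 and the 22 above its inverse around 0.73.

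All 8 suberin, surface lipid and cell wall genes were called higher in starved nlp2, with log2 fold changes from 1.07 to 1.49. The set was put together after these values were seen, so nothing is read from the width of that range. After nitrate 0 were called in either direction by edgeR, and 0 at an unadjusted p below 0.05, with estimates from -0.26 to 0.15. Their summed level was 147, 111 and 153 CPM in untreated nlp2, 467, 365 and 379 CPM in starved nlp2 and 365, 344 and 345 CPM in resupplied nlp2, against 89.1, 67.4 and 88.6, then 393, 384 and 386, then 336, 376 and 362 CPM in the same conditions of wild type.

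FACT (AT5G63560), which joins caffeic acid to fatty alcohols of suberin-associated wax, was at 37.2, 31.8 and 37.0 CPM in untreated nlp2, 122, 103 and 107 CPM in starved nlp2 and 93.6, 97.5 and 91.4 CPM in resupplied nlp2. The resupplied libraries lay just below the starved ones, and both far above the untreated ones. Its log2 fold change was 1.45 ± 0.12 (SE) for starvation (adjusted p = 4.23e-08, edgeR) and -0.15 ± 0.11 after nitrate (adjusted p = 0.426). In wild type it averaged 20.8 ± 3.13, 95.8 ± 5.33 and 84.7 ± 2.80 CPM over the same 3 conditions (SD, n = 3 each).

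CYP86B1 (AT5G23190), which hydroxylates very-long-chain fatty acids for suberin, was at 14.0, 10.2 and 17.0 CPM in untreated nlp2, 44.9, 34.2 and 39.2 CPM in starved nlp2 and 38.2, 37.9 and 32.3 CPM in resupplied nlp2. The starved and resupplied libraries overlapped. Its starvation change was 1.32 ± 0.21 on the log2 scale (adjusted p = 9.79e-05, edgeR), and its change after nitrate -0.05 ± 0.20. ABCG2 (AT2G37360) and ABCG6 (AT5G13580), ABC transporters needed for a normal suberin layer, each have 1 annotated exon. ABCG2 was at 12.6, 9.83 and 14.0 CPM in untreated nlp2, 39.7, 33.5 and 33.8 CPM in starved nlp2 and 36.2, 34.3 and 32.9 CPM in resupplied nlp2, and the starved and resupplied libraries overlapped. Its change after nitrate was 0.03 ± 0.13, with a 95% interval from -0.24 to 0.31. ABCG6 was at 15.2, 11.4 and 21.3 CPM in untreated nlp2, 61.4, 44.8 and 48.7 CPM in starved nlp2 and 40.1, 42.6 and 39.6 CPM in resupplied nlp2. Here all resupplied libraries lay below all starved ones, and the change of -0.26 ± 0.23 did not pass (adjusted p = 0.506, edgeR). A gene model on the opposite strand overlaps ABCG2. No source used here says whether counting used the strand, so the reads of the pair cannot be told apart.

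The other 4 genes of this set carry family names only. AT4G24140, an alpha/beta hydrolase, averaged 19.0 ± 2.59, 59.7 ± 10.4 and 50.8 ± 6.85 CPM in untreated, starved and resupplied nlp2 (SD, n = 3 each). AT5G09480, a hydroxyproline-rich glycoprotein, averaged 23.1 ± 5.55, 61.1 ± 8.72 and 48.4 ± 4.03 CPM. AT2G35380, a peroxidase, was at 15.9, 10.6 and 12.9 CPM in untreated nlp2, 42.4, 31.6 and 30.9 CPM in starved nlp2 and 35.4, 32.5 and 37.6 CPM in resupplied nlp2, where it overlapped the starved libraries. AT3G50400, a GDSL-like lipase, had the smallest starvation change of the 25, 1.07 ± 0.21 on the log2 scale (adjusted p = 0.000636, edgeR).

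**Figure D3:**
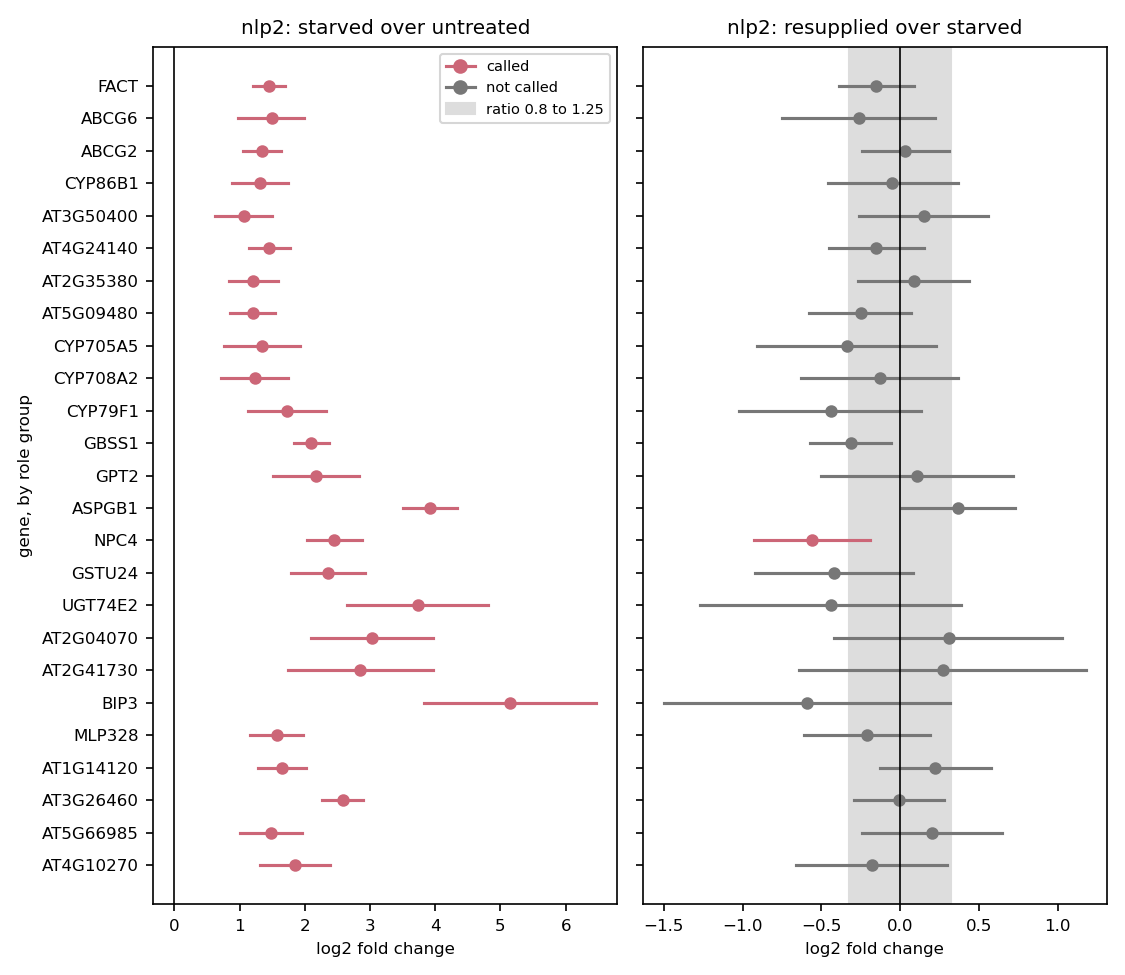
Log2 fold change with its 95% interval for the 25 genes in nlp2, for starved over untreated seedlings on the left and resupplied over starved seedlings on the right; red marks genes called and grey those not called, and the band spans ratios of 0.8 to its inverse. All points on the left lie at 1.07 or above, and on the right NPC4 alone was called.

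A list of 20 suberin genes holds 4 members: FACT, CYP86B1, ABCG2 and ABCG6. All 20 were tested. In starved against untreated nlp2, 15 were called higher and 1 lower, with a median log2 fold change of 1.15. The 15 include the 4 members, which were chosen for their rise in wild type. The list itself was chosen with earlier results of these data known. The shares over all genes tested were 14.5% and 15.7%. After nitrate 0 were called higher and 5 lower, against 9.36% and 9.23% of genes tested, with a median of -0.16. The 5 that fell were the fatty acyl reductases FAR4 (-0.92 ± 0.14) and FAR5 (-0.47 ± 0.13), the elongase KCS2 (-0.51 ± 0.16), the regulator MYB92 (-0.58 ± 0.15) and the acyl-CoA synthetase LACS2 (-0.35 ± 0.12). FAR4 and FAR5 had been raised over 4-fold by starvation in wild type, and their wild-type ratios after nitrate were 0.538 and 0.704. CYP86A1, a fatty acid hydroxylase, and GPAT5, an acyltransferase of suberin synthesis, stayed outside the 25 with wild-type starvation ratios of 3.97 and 3.96. CYP86A1 averaged 42.3, 111 and 89.5 CPM in untreated, starved and resupplied nlp2 and was called higher in starved nlp2 (1.19 ± 0.16, adjusted p = 1.42e-05, edgeR). Of the MYB regulators on the list, MYB53 (1.38 ± 0.16) and MYB93 (0.52 ± 0.15) were called higher in starved nlp2, MYB39 was called lower (-1.76 ± 0.41) at means of 0.318 CPM in starved and 0.958 CPM in untreated nlp2, and MYB41 and MYB92 were not called.

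Suberin is made mainly in roots, and in whole seedlings fewer cells of a type and less RNA per cell cannot be told apart. A list of 15 root markers summed to 4190 to 4720 CPM in starved and 3750 to 4210 CPM in untreated nlp2, with 2 called higher and 3 lower and a median log2 fold change of 0.09. Of 10 shoot markers 9 were tested, 0 were called higher and 5 lower, with a median of -0.96, and the list summed to 8420 to 10500 CPM in starved and 16500 to 22600 CPM in untreated nlp2. Over all genes tested, 14.5% were called higher and 15.7% lower in starved nlp2. No root or shoot marker was at 0 in all libraries. The part of this shift in the members' rise was not tested.

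**Figure D4:**
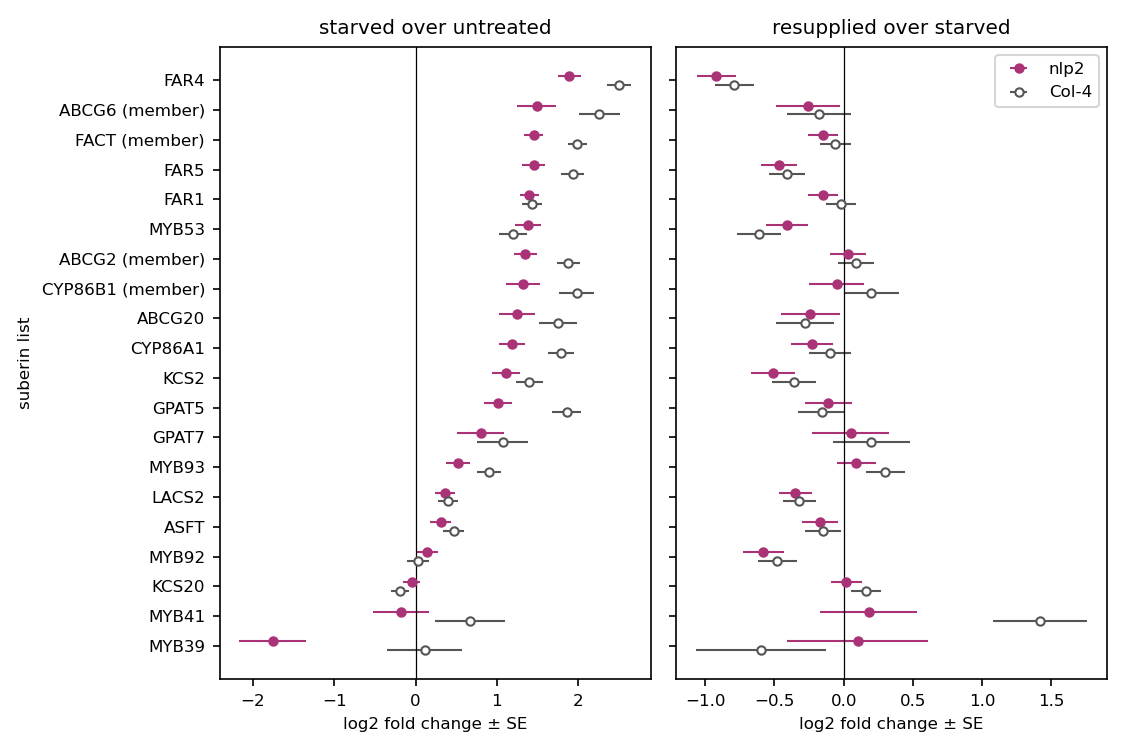
Log2 fold change ± SE of the 20 suberin list genes, with nlp2 as filled and wild type as open circles, for starved over untreated seedlings (left) and resupplied over starved seedlings (right). The 4 members, chosen for their rise in wild type, are marked. They are among the 15 of the 20 called higher in starved nlp2 (14.5% of genes tested), FAR4 with the largest change.

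All 3 genes of triterpene and glucosinolate synthesis were called higher in starved nlp2, by 1.23 to 1.72 on the log2 scale. CYP705A5 (AT5G47990) and CYP708A2 (AT5G48000), which modify thalianol, a triterpene of Arabidopsis roots, are neighbours on chromosome 5, at 19434758 to 19436749 on the forward and 19444103 to 19447866 on the reverse strand (TAIR10.1). They were the only 2 members within 3 gene models of another member. CYP705A5 was at 72.6, 92.7 and 117 CPM in untreated nlp2, 376, 229 and 212 CPM in starved nlp2 and 191, 226 and 197 CPM in resupplied nlp2. Replicate 1 of starved nlp2 was far above the other 2. Its starvation change was 1.34 ± 0.28 (adjusted p = 0.00146, edgeR). CYP708A2 was at 40.9, 55.0 and 63.2 CPM in untreated nlp2, 185, 123 and 118 CPM in starved nlp2 and 105, 141 and 124 CPM in resupplied nlp2, high in the same starved library. For both, starved and resupplied libraries overlapped.

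The flanking genes belong to the same gene cluster. THAS1, the synthase that makes thalianol, averaged 42.2, 194 and 128 CPM in untreated, starved and resupplied nlp2, and the acyltransferase AT5G47980 averaged 12.9, 44.3 and 30.5 CPM. Both were called higher in starved nlp2 (2.01 ± 0.29 and 1.59 ± 0.30, edgeR). After nitrate neither passed in nlp2 (-0.53 ± 0.28 and -0.47 ± 0.29). In wild type both were among the 71 raised genes with a ratio below 0.8 after nitrate. THAS1 averaged 303 CPM in starved and 213 CPM in resupplied wild type, and AT5G47980 averaged 56.1 and 36.3 CPM.

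CYP79F1 (AT1G16410), which begins aliphatic glucosinolate synthesis from chain-elongated methionine, was at 22.4, 33.8 and 45.2 CPM in untreated nlp2, 128, 123 and 131 CPM in starved nlp2 and 87.4, 90.9 and 88.0 CPM in resupplied nlp2. All resupplied libraries lay below all starved ones, with a change of -0.44 ± 0.27 that did not pass (adjusted p = 0.315, edgeR). Its closest copy CYP79F2, 92.0% identical over 1593 aligned bases, averaged 60.6 ± 3.26 CPM in starved and 69.5 ± 10.7 CPM in untreated nlp2 (SD, n = 3 each) and was called lower (-0.39 ± 0.10, adjusted p = 0.00606). Reads with equally good hits were removed before counting. Of the 50-base windows of the CYP79F1 transcript 2.0% also occur in CYP79F2, so the counts of the pair are uncertain to that extent.

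The 4 genes of carbon, nitrogen and membrane lipid were all called higher in starved nlp2, by 2.1 to 3.92. ASPGB1 (AT3G16150), an asparaginase that frees ammonium from asparagine, was at 5.78, 5.5 and 6.82 CPM in untreated nlp2, 89.7, 117 and 109 CPM in starved nlp2 and 137, 112 and 134 CPM in resupplied nlp2. Starved and resupplied libraries overlapped at the upper end of the starved range. Its starvation change was 3.92 ± 0.20 (adjusted p = 4.28e-10, edgeR) and its change after nitrate 0.37 ± 0.17 (adjusted p = 0.156), the highest estimate of the 25. The other asparaginase gene, ASPGA1, averaged 30.2, 31.2 and 30.0 CPM in untreated, starved and resupplied nlp2 and was not called for starvation (-0.15 ± 0.11). Per kilobase of gene model, the level in starved nlp2 was 82.4 CPM for ASPGB1 and 25.9 CPM for ASPGA1.

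GBSS1 (AT1G32900), the granule-bound starch synthase that makes amylose, was at 21.4, 25.7 and 20.3 CPM in untreated nlp2, 110, 116 and 105 CPM in starved nlp2 and 91.4, 77.4 and 81.4 CPM in resupplied nlp2. All resupplied libraries lay below all starved ones, and the change of -0.31 ± 0.12 missed the threshold (adjusted p = 0.0871, edgeR). It passed with library size alone (-0.40, adjusted p = 0.0197) and without replicate 1 of resupplied nlp2 (-0.42), and its adjusted p ranged from 0.0197 to 0.305 over the alternatives. SS1, a soluble starch synthase, averaged 101 CPM in starved and 108 CPM in untreated nlp2 and was called lower (-0.30 ± 0.08). GPT2 (AT1G61800), which exchanges glucose 6-phosphate across the plastid envelope, was at 6.65, 17.1 and 9.96 CPM in untreated nlp2, 47.5, 76.5 and 47.3 CPM in starved nlp2 and 59.0, 65.1 and 49.3 CPM in resupplied nlp2. Replicate 2 was the highest in each of the 3 groups, and the starvation change was 2.17 ± 0.31 (adjusted p = 6.83e-05, edgeR). Its paralog GPT1 was called higher as well (0.26 ± 0.08).

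NPC4 (AT3G03530), a phospholipase C that removes headgroups from phospholipids, was the member called after nitrate. It was at 3.06, 3.17 and 3.22 CPM in untreated nlp2, 26.6, 17.2 and 15.2 CPM in starved nlp2 and 13.5, 12.0 and 12.5 CPM in resupplied nlp2. Its change after nitrate was -0.56 ± 0.18 (adjusted p = 0.0339, edgeR). Replicate 1 of starved nlp2 was far above the other 2, and without it the change was -0.25 (adjusted p = 0.307). The call was also lost without replicate 2 (adjusted p = 0.132) or replicate 3 (0.0883) of resupplied nlp2. NPC4 was the only member on a list of 21 phosphate starvation genes, of which 17 were tested. In starved nlp2, 6 of them were called higher and 5 lower (14.5% and 15.7% of genes tested), with a median of -0.03. The paralog NPC3 was called higher (0.47 ± 0.15), and NPC5, the closest copy, had 0 reads in all libraries.

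In the fourth set the starvation changes in nlp2 ran from 2.36 to 5.15 with a median of 3.03, and all 5 genes were called. GSTU24 (AT1G17170) is a glutathione transferase, UGT74E2 (AT1G05680) a glycosyltransferase that acts on the auxin indole-3-butyric acid, AT2G04070 a MATE efflux carrier, and AT2G41730 a protein annotated with a calcium-binding site. BIP3 (AT1G09080) is the inducible form of the Hsp70 chaperone of the endoplasmic reticulum. UGT74E2 was at 0.437, 1.00 and 0.939 CPM in untreated nlp2, 10.5, 15.9 and 10.0 CPM in starved nlp2 and 7.91, 9.16 and 8.20 CPM in resupplied nlp2. BIP3 was at 0.194, 0.833 and 0.490 CPM in untreated nlp2, 17.2, 31.0 and 13.1 CPM in starved nlp2 and 15.5, 10.6 and 12.1 CPM in resupplied nlp2. Its estimate of 5.15 ± 0.62 rests on few reads in the untreated libraries, and its 95% interval ran from 3.83 to 6.47. The constitutive BIP1 and BIP2 averaged 533 ± 122 and 323 ± 51.1 CPM in starved nlp2, against 435 ± 72.3 and 271 ± 75.5 CPM in untreated nlp2 (SD, n = 3 each), and neither was called (0.11 ± 0.27 and 0.07 ± 0.29). AT2G04050, the closest copy of AT2G04070, was called higher (2.61 ± 0.50). The pair is 90.3% identical over 1471 aligned bases, so its counts are uncertain.

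In wild type, the place of the fourth set among the 25 rested on replicate 1 of resupplied seedlings. UGT74E2 was at 0.487, 0.329 and 0.737 CPM in untreated, 8.51, 11.8 and 10.5 CPM in starved and 18.4, 4.78 and 5.92 CPM in resupplied wild type. AT2G41730 was at 26.9, 6.92 and 8.49 CPM in resupplied and 13.3, 9.50 and 11.9 CPM in starved wild type, and AT2G04070 at 11.9, 3.90 and 4.40 CPM in resupplied and 6.31, 4.87 and 5.34 CPM in starved wild type. In these 3 genes replicate 1 of resupplied wild type was above all starved libraries and the other 2 replicates were below them all. Summed over the 5 genes, resupplied wild type was at 84.1, 27.9 and 32.7 CPM and starved wild type at 40.9, 50.6 and 47.3 CPM. Without that library the wild-type ratio after nitrate was 0.543 for UGT74E2, 0.677 for GSTU24, 0.679 for AT2G41730, 0.744 for BIP3 and 0.775 for AT2G04070, all under 0.8. NPC4 (0.786), CYP705A5 (0.711) and CYP708A2 (0.737) also left the range, which makes 8 of the 25, and none of the first set was among them.

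In nlp2 the summed level of the 5 genes was 64.5, 53.8 and 56.4 CPM in resupplied and 67.5, 89.9 and 53.2 CPM in starved seedlings, and these groups overlapped. The change after nitrate in nlp2 lay between -0.59 and 0.31, with 0 of the 5 called by edgeR and 0 at an unadjusted p below 0.05. For UGT74E2, taken alone, all resupplied nlp2 libraries lay below all starved ones, with a change of -0.44 ± 0.39 that did not pass (adjusted p = 0.518).

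**Figure D5:**
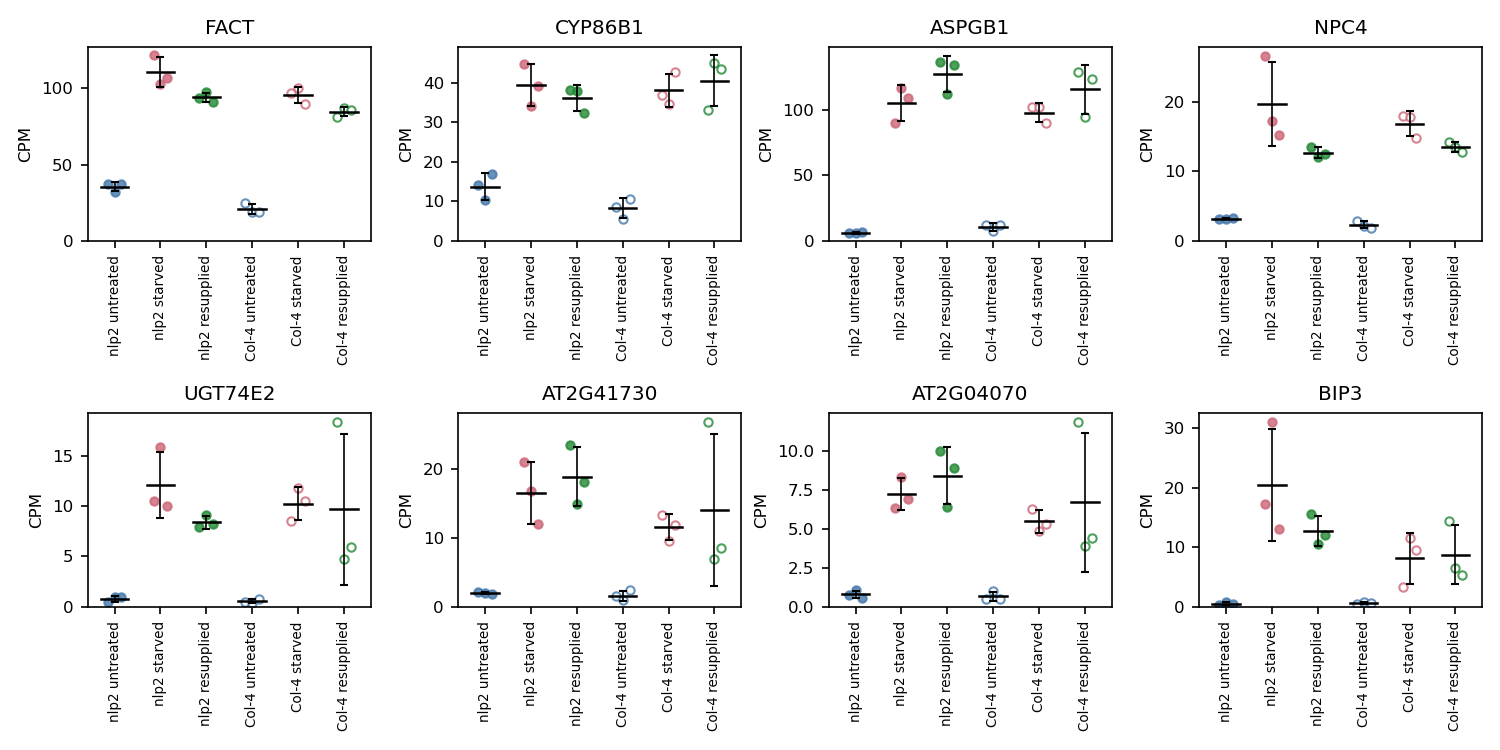
CPM of 8 members in every library, with nlp2 as filled and wild type as open circles; the bar is the mean and the whisker the SD of 3 libraries, and replicates 1, 2 and 3 run left to right in each group. In the lower row, replicate 1 of resupplied wild type stands above the other 2 for UGT74E2, AT2G41730, AT2G04070 and BIP3.

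Of the other 5 members, MLP328 (AT2G01520), a major latex-like protein, had the highest level of the 25 per kilobase of gene model, 1500 CPM in starved nlp2. It was at 359, 250 and 428 CPM in untreated nlp2, 1220, 1100 and 1230 CPM in starved nlp2 and 996, 1050 and 853 CPM in resupplied nlp2. Its change after nitrate, -0.21 ± 0.19, did not pass (adjusted p = 0.534, edgeR). Its closest copy AT4G14060 was called higher in starved nlp2 (2.73 ± 0.15). AT3G26460, annotated to polyketide cyclases and lipid transport, was at 7.09, 6.5 and 7.80 CPM in untreated nlp2, 50, 48.5 and 48.3 CPM in starved nlp2 and 43.0, 51.3 and 43.9 CPM in resupplied nlp2. Starved and resupplied libraries overlapped, and the change after nitrate was -0.01 ± 0.14 with a 95% interval from -0.29 to 0.28. Its closest copy AT3G26450, 91.0% identical over 524 aligned bases, averaged 404 ± 115 CPM in starved and 209 ± 27.8 CPM in untreated nlp2 (SD, n = 3 each) and was not called (0.77 ± 0.29, adjusted p = 0.0542, edgeR). Of the 50-base windows of the AT3G26460 transcript 3.61% also occur in AT3G26450, the far more abundant gene, so the counts of AT3G26460 are uncertain to that extent.

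AT1G14120, an oxygenase that uses 2-oxoglutarate and iron, averaged 20.1, 72.0 and 79.7 CPM in untreated, starved and resupplied nlp2. AT5G66985, of unknown function, averaged 5.20, 16.5 and 17.9 CPM, and AT4G10270, annotated as wound-responsive, 3.83, 16 and 13.4 CPM. All 3 were called higher in starved nlp2 (1.65 ± 0.18, 1.48 ± 0.23 and 1.85 ± 0.25), and 0 of the 3 after nitrate. AT4G10265, the wound-responsive gene next to AT4G10270, was called higher in starved nlp2 as well (1.78 ± 0.29). Gene models on the opposite strand overlap AT4G10270, whose counts are uncertain for that reason. Among the 111 tested gene models within 3 of a member that were not members, 22 were called higher and 14 lower in starved nlp2. Over all genes tested the shares were 14.5% and 15.7%, and the difference was not tested.

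The wild-type levels in all 3 conditions entered the choice of the members, so the differences between genotypes below, and those in response, are given as a description, from which nothing is read. Between the genotypes, 0 of the 25 were called in either direction in starved seedlings by edgeR (0.281% of genes tested were called higher and 0.0843% lower in nlp2), with a median log2 difference of 0.02. At an unadjusted p below 0.05, 3 were higher and 2 lower (2.89% and 2.92% of genes tested). DESeq2 called 1 higher, GPT2, against 100 called higher over all genes. Every nlp2 library lay above every wild-type one for 5 members (9.11% of genes tested) and below for 1 (4.56%). GPT2 was at 47.5, 76.5 and 47.3 CPM in starved nlp2, against 22.9, 33.5 and 20.2 CPM in starved wild type, without overlap, and did not pass by edgeR (1.12 ± 0.30, adjusted p = 0.218, edgeR). In resupplied seedlings 0 were called by edgeR (0.365% and 0.422% of genes tested), with a median of -0.11, 2 higher and 3 lower at an unadjusted p below 0.05 (2.84% and 4.46% of genes tested), and 0 called by DESeq2. Without replicate 1 of resupplied wild type, which stood apart, 1 member was called higher, AT2G41730, and without replicate 1 of resupplied nlp2, 0 were. The nlp2 libraries lay above all wild-type ones for 3 members (9.20% of genes tested) and below for 6 (3.85%).

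In untreated seedlings 3 members were called higher in nlp2 and 0 lower, against 0.272% and 0.0890% of genes tested, with a median of 0.48. At an unadjusted p below 0.05, 12 were higher and 1 lower (3.45% and 2.58% of genes tested). The members were chosen to be low in untreated wild type, which by itself moves this difference up. The nlp2 libraries lay above all wild-type ones for 10 members (6.5% of genes tested) and below for 1, ASPGB1 (2.53%). Without replicate 1 of untreated nlp2, which stood apart, 2 were called higher, FACT and AT3G26460. DESeq2 called 6 higher and 1 lower, against 107 and 44 over all genes. With replicate number as a block 6 were called higher. The block also raised the number of all genes called between genotypes, from 78 to 137 in starved and from 168 to 360 in resupplied seedlings. The 3 called by edgeR without the block were FACT, AT5G09480 and AT3G26460. FACT was at 37.2, 31.8 and 37.0 CPM in nlp2, against 24.4, 19.1 and 18.9 CPM in wild type (0.72 ± 0.12, adjusted p = 0.00618, edgeR). AT5G09480 was at 28, 17.1 and 24.2 CPM in nlp2, against 12.3, 11.5 and 13.0 CPM in wild type (0.88 ± 0.17, adjusted p = 0.0230). AT3G26460 was at 7.09, 6.5 and 7.80 CPM in nlp2, against 2.84, 2.57 and 4.91 CPM in wild type (1.00 ± 0.17, adjusted p = 0.0113). The groups did not overlap in any of the 3. No call held with each library left out in turn: the highest adjusted p was 0.0774 for FACT, 0.170 for AT5G09480 and 0.0883 for AT3G26460. All 3 calls were lost without replicate 2 of untreated wild type and without replicate 3 of untreated nlp2.

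ASPGB1 was at 5.78, 5.5 and 6.82 CPM in untreated nlp2 and 12.3, 7.24 and 11.6 CPM in untreated wild type, and the difference did not pass (-0.84 ± 0.20, adjusted p = 0.109, edgeR). The starvation response did not pass as different between the genotypes by edgeR for any member or any of the 21347 genes tested (0.0% called). With replicate number as a block, 0 members and 1 gene were called. The values that follow are without the block. At an unadjusted p below 0.05, 11 members had a smaller and 1 a larger response in nlp2 (1.09% and 0.759% of genes tested), and DESeq2 called 0 members. The median was -0.50, in a comparison whose wild-type side was chosen to be large. The difference in the nitrate response, whose wild-type side the rule kept near no change, did not pass for any member or gene by edgeR (0.0% called). It had a median of -0.15, with 0 members at an unadjusted p below 0.05 and 0 called by DESeq2.

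Short lists of other genes linked to nitrogen shortage and stress held no member, which does not show that no member belongs to these responses. Over all genes tested, 14.5% were called higher and 15.7% lower in starved nlp2, and 9.36% and 9.23% after nitrate. In starved against untreated nlp2, 15 of 18 nitrogen starvation transport genes were called higher and 1 lower (median 0.77), and of 20 nitrogen remobilisation genes 15 and 4 (median 0.51). Of 27 tested genes of abscisic acid and dehydration, 14 were called higher and 0 lower (median 0.47). Of 20 tested anthocyanin genes, 12 were called higher and 4 lower (median 0.65), and of 14 hypoxia genes 9 and 0 (median 1.13). Senescence genes gave 10 higher and 3 lower of 28 tested (median 0.17), autophagy genes 6 and 1 of 16 (median 0.08) and salicylic acid defence genes 5 and 0 of 17 tested (median 0.12). After nitrate, 7 of the anthocyanin genes and 7 of the nitrogen transport genes were called lower, with 3 and 5 higher. The counts called higher and lower were 5 and 6 for remobilisation, 7 and 4 for abscisic acid and 3 and 0 for hypoxia genes. They were 3 and 3 for senescence, 0 and 2 for autophagy and 6 and 1 for salicylic acid defence genes. No seed marker passed the filter on low counts, and the 9 together summed to between 0.0681 and 0.611 CPM in the nlp2 libraries.

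Several members lay close to the limits that chose them, and the choice depends on the scaling. With library sizes scaled by TMM in place of the totals, 15 genes met the rule, of which 10 are among the 25. In wild type TMM lowers the starvation changes by 0.21 on the log2 scale and raises the changes after nitrate by 0.12. On that scale 12 members, FACT, CYP86B1 and ABCG2 among them, had starvation ratios under 4, from 3.57 to 3.94, and 4 members, ASPGB1, GPT2, AT2G41730 and AT2G04070, had ratios after nitrate from 1.29 to 1.34. With each of the 9 wild-type libraries left out in turn, 20 to 36 genes met the rule, and 6 members were kept every time: FACT, AT1G14120, AT5G09480, AT4G24140, AT3G26460 and AT2G35380. Just inside the starvation limit were GPT2 (4.10), ABCG2 (4.11) and CYP705A5 (4.12), and just outside were BGLU7 (3.99), AT2G47200 (3.98) and CYP86A1 (3.97). Just inside the lower limit after nitrate were AT4G10270 (0.807), NPC4 (0.808) and ABCG6 (0.820), and just outside AT2G23540 (0.796), AT5G37690 (0.794) and ABCA8 (0.793). At the upper limit the nearest were AT2G41730 and AT2G04070 (both 1.21) and GPT2 (1.19) inside, and AT4G28940 (1.27), VSP2 (1.29) and JAL23 (1.32) outside. The level limit left out FPF1, whose highest wild-type mean was 4.95 CPM before 0.5 was added, and AT2G04070 was the nearest inside it (6.75 CPM).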

How the data were processed

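RNA was measured by poly(A)-selected, stranded single-end sequencing in 18 libraries, per the labels' protocols. The authors deposited counts of reads per gene model, 1 file a library. Reads were counted with sam2pkm and those with equal best and second-best alignment scores were removed (1.9 to 2.17% of mapped reads), per the file headers. Bowtie2 and the TAIR10 build are named in the submitters' processing notes; no source used here states their versions, the annotation, or whether counting used the strand. No file held columns of other samples.

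Counts were tested with edgeR 4.0.16 in R 4.3.3 (robust quasi-likelihood, TMM, all 6 groups in 1 fit, filterByExpr with minimums of 10 and 15 reads, Benjamini-Hochberg over 21347 genes, called at an adjusted p below 0.05), after a check on simulated data. DESeq2 1.42.0 was an alternative, beside library size alone, other filters, nlp2 libraries only, each library left out, and a replicate block. Copies were found with BLAST+ 2.17.0.

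The members and the 13 gene lists were chosen with earlier results of these data known, and the role groups and paralogs after the members' values were seen. Members were named by rule: the highest with a symbol in each annotation class, the 10 largest starvation changes in nlp2 among members with a symbol, calls after nitrate or between genotypes, list members, genes at the limits and neighbours. AT1G14120, AT4G24140, AT2G35380, AT5G66985 and AT3G50400 fall outside it and were named after their values were seen. Same-numbered libraries of nlp2 and of untreated wild type share a labelled planting month; most other wild-type libraries carry none. In nlp2 their deviations correlated at -0.135 to 0.386 (9 pairs), against -0.405 to 0.13 for other numbers (18 pairs). Between genotypes within a condition, same-numbered libraries correlated at 0.273 to 0.664 (9 pairs), so the genotype comparisons are paired. The fit without the block stays the one reported, so the SE and adjusted p of the genotype comparisons leave this pairing out. The count of members that the block moved is given beside it.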

Additional observations from a re-analysis of the deposited data

How the results depend on the processing

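The number of genes meeting the rule was 15 on TMM-scaled CPM and 41 with 0.1 CPM added, and 20 to 36 with 1 wild-type library left out. The members meeting it in nlp2 numbered 2 to 7 with 1 nlp2 library left out. Members called lower in resupplied than in starved nlp2 numbered 2 with library size alone, 0 with nlp2 libraries only and 0 to 2 with 1 library left out. Between genotypes in untreated seedlings, DESeq2 called 6 higher and 1 lower (107 and 44 over all genes). The fit with the replicate block called 6 higher, and leaving out 1 library gave 0 to 6 higher and 0 to 1 lower. In starved seedlings DESeq2 called 1 higher, and in resupplied seedlings leaving out 1 library gave 0 to 1. The replicate block changed no other count of members: 25 stayed called higher in starved nlp2 and 1 lower after nitrate. Every member tested was called higher in starved nlp2 under each alternative run; with a minimum mean of 5 CPM in place of the count filter, 24 were tested. In resupplied against untreated nlp2, CYP705A5 was lost without replicate 1 of untreated nlp2 (0.87, adjusted p = 0.0561, edgeR), which left 24. The causes were not tested.

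Estimates near 0 after nitrate in nlp2 changed sign 13 times over 7 members, with no call. ABCG2 was at -0.05 with library size alone. With 1 library left out in turn, the log2 estimate ran from -0.05 to 0.14 for ABCG2, from -0.02 to 0.27 for AT2G35380, from -0.06 to 0.03 for AT3G26460, from -0.38 to 0.05 for AT4G10270, from -0.28 to 0.02 for AT4G24140, from -0.25 to 0.13 for CYP708A2 and from -0.17 to 0.08 for CYP86B1. Of the other values for single genes, 974 kept their direction and side of the threshold, 16 lost a call and 2 gained one. Genes of few reads, such as BIP3 in untreated nlp2, are limited by depth.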
